A study of Homo sapiens with 6 samples.

Results

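The genes described here encode the translation initiation factors, taken as every gene symbol of the platform annotation that starts with EIF and a digit from 1 to 6, without the eIF2 kinases. Only probe sets with exactly 1 gene symbol were used. The rule found 47 genes, measured by 120 probe sets, among 19775 genes and 54675 probe sets in all. Of the 47, 45 encode proteins and 2, EIF1B-AS1 and EIF3J-DT, are non-coding RNAs named after a neighbouring factor. After a filter on dim signals 45 genes were tested, and EIF4A2 and EIF1AY fell below it. EIF4A1, the main helicase of initiation, is not a member, because each of its probe sets carries several symbols.

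RNA was measured on 6 one-colour Affymetrix arrays of MDA-MB-231 cells, an established breast cancer line of human origin that lacks estrogen receptor. The cells were transfected with an siRNA against LSD1 (3 arrays) or with a control siRNA (3 arrays). Each group had 3 biological replicates, and RNA was taken after 6 days of treatment with 2 rounds of transfection. KDM1A is the gene of LSD1, an enzyme that removes methyl groups from histones, and the design asks what its depletion does to transcript levels.

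Initiation factors bring the ribosome to the start codon of an mRNA. The eIF4F proteins bind the cap and unwind the leader, eIF2 carries the initiator tRNA with help from its exchange factor eIF2B, and eIF3 holds the small ribosomal subunit together with the other factors. Those eIF4E-binding proteins that mTOR controls keep the cap-binding protein eIF4E from the scaffold of eIF4F until mTOR phosphorylates them. Kinases that phosphorylate eIF2 slow initiation under stress. eIF5A, first named as an initiation factor, helps ribosomes through difficult peptide bonds and is the protein known to carry the modified amino acid hypusine.

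KDM1A had signals of 291, 184 and 228 on the LSD1 siRNA arrays, against 2540, 2493 and 2295 on the control siRNA arrays. The change was -3.32 on the log2 scale (standard error 0.13, limma adjusted p = 1.46e-08). Arrays of a group correlated at 0.986 to 0.989 over the genes tested, and arrays of different groups at 0.967 to 0.972. Control array 1 had a ratio of 1.74 between the 3′ and 5′ control probe sets of ACTB, a sign of RNA or labelling quality, and the other 5 arrays lay between 1.33 and 1.43. VIM, CD44, EGFR, CAV1, AXL and MSN, markers of this kind of cell line, had summed signals of 96641 to 105077 with LSD1 siRNA and 98086 to 108775 with control siRNA. The 7 markers of luminal cells summed to 9315 to 10239 with LSD1 siRNA and to 7704 to 8480.5 with control siRNA. Of these, KRT19 averaged 6774 with LSD1 siRNA and 5070 with control siRNA, and EPCAM 1644 and 1658. GATA3 averaged 513 and 523, and ERBB2 507 and 581. The hormone receptors ESR1 and PGR were dim, at 75.7 and 29.5 with LSD1 siRNA and 59.1 and 60.7 with control siRNA. The 5 measured leukocyte markers summed to 180 to 239 with LSD1 siRNA and to 218 to 237 with control siRNA, with PTPRC and MS4A1 below the filter on dim signals. Markers of endothelium and fibroblasts summed to 305 to 362 with LSD1 siRNA and to 253 to 299 with control siRNA, with CDH5, VWF and LUM below the filter and not tested. LUM, a matrix protein of fibroblasts, had dim signals of 98.3, 86.3 and 101 with LSD1 siRNA, against 4.58, 0.595 and 0.518 with control siRNA, without overlap, and its part in the results below was not tested. None of the 3 tested leukocyte markers and the 3 tested endothelial and fibroblast markers passed. Among the markers of the line itself and of luminal cells, MSN (0.60) and KRT19 (0.42) rose and EGFR (-0.25) fell on the log2 scale.

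Members that changed by at least 0.4 on the log2 scale and passed the test were EIF5A2, EIF5A, EIF4EBP1, EIF4ENIF1 and EIF4A3. The 250 bases before the transcription start are shown for the 4 other than EIF4EBP1, whose promoter was not analysed here. They include a pair of paralogs that moved in opposite directions. The sequences are from RefSeq on GRCh38.p14, and capitals mark the E-box CACGTG and the GC box GGGCGG, searched on both strands. EIF5A2 is at chr3:170908638-170908887 on the minus strand and EIF5A at chr17:7306749-7306998 on the plus strand, the furthest upstream of 6 listed starts. EIF4A3 is at chr17:80147129-80147378 and EIF4ENIF1 at chr22:31489843-31490092, both on the minus strand.
EIF5A2: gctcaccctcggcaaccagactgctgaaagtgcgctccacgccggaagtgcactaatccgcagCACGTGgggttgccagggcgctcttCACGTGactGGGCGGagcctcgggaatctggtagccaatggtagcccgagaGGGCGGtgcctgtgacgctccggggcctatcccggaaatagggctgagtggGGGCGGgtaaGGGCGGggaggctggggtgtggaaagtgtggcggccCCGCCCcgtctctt
EIF5A: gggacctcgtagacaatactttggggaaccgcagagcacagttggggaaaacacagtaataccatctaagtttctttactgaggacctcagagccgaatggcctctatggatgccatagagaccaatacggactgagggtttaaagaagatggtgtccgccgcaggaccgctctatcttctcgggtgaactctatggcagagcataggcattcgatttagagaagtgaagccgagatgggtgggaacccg
EIF4A3: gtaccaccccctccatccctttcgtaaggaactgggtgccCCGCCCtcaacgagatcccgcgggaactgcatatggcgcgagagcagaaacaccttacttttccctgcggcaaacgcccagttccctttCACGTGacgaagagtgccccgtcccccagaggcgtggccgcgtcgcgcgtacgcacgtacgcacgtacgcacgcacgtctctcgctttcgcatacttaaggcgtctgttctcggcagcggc
EIF4ENIF1: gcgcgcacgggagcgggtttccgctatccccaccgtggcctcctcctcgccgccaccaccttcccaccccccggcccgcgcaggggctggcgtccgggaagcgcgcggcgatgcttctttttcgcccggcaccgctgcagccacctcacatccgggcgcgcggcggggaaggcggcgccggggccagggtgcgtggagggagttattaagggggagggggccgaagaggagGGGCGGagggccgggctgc

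The EIF5A2 window holds 5 GC boxes and a pair of E-boxes, which read the same on both strands. The EIF5A window shown, that of 1 of its 6 listed starts, holds neither motif, and the windows of its other starts are not shown. EIF4A3 holds 1 of each, and EIF4ENIF1 holds 1 GC box. Over all 35116 windows of this length in the RefSeq table, 6.34% hold CACGTG and 42.6% hold GGGCGG. Those windows belong to 27305 genes and were not limited to protein-coding ones, so the sets compared are unlike. Of 52 windows that belong to 38 protein-coding members, 10 (19.2%) hold CACGTG and 33 (63.5%) hold GGGCGG. Among them, 22 windows belong to 13 of the 19 members that fell, and 22.7% of these hold CACGTG and 68.2% hold GGGCGG. Several windows of a gene overlap, so they are not independent. CCAAT was in 34.6% of the members' windows, in 22.7% of the windows of members that fell and in 32.0% of all. TTTCCCGC or TTTGGCGC, forms of the E2F site, was in 0 of the 52 and in 1.93% of all. A match is a run of letters and not a measured binding site.

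Initiation factor genes were lower more often than higher with LSD1 siRNA. Of the 45 genes tested, 19 fell and 3 rose (limma, adjusted p under 0.05 over all 13822 genes tested), so 42.2% fell and 6.67% rose. Over all genes tested 21.3% fell, 19.8% rose and 41.0% changed in either direction. The median log2 change of the members was -0.16, and that of all genes tested was -0.02. Most changes were small: 4 of the 22 were at least 0.5 on the log2 scale (18.2%, against 49.6% of all genes called), and 15 were under 0.3. The members are bright, with a median signal of 5241 over the arrays, against 559 over all genes tested. Signals were scaled to a common mean on each array, so a change in total RNA per cell cannot be seen.

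**Figure D1:**
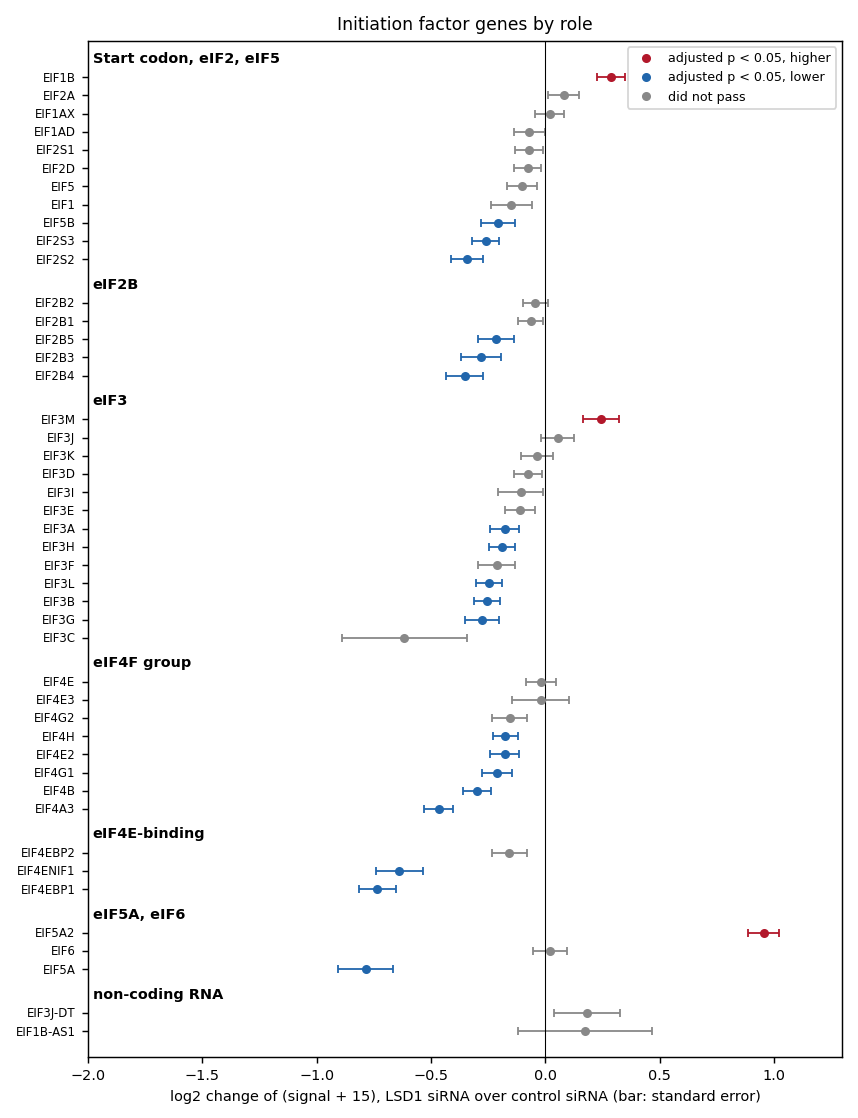
Log2 change of signal + 15, LSD1 siRNA over control siRNA (x axis), for each of the 45 genes tested (y axis, grouped by role), with 3 arrays per group and bars for the standard error. EIF5A2 lies alone on the right at 0.96, while EIF5A, EIF4EBP1 and EIF4ENIF1 lie furthest left among the genes that passed the test, between -0.79 and -0.64.

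The array with the high ACTB ratio was also the highest for many members. Of the 45 genes, 22 had their highest signal on control array 1, and the part of the ACTB ratio of 1.74 in this was not tested. Without that array 14 fell (31.1%, against 18.3% of all genes) and 2 rose, and the median was -0.08. EIF2B3, EIF2B5, EIF3A, EIF3H, EIF4E2 and EIF3M lost their calls there. Without LSD1 siRNA array 1 the number that fell was 11 (24.4%, against 19.3% of all genes), and without LSD1 siRNA array 3 it was 10 (22.2%, against 18.3%). The excess in calls over all genes was thus much smaller without either of these arrays. The median of the members ranged from -0.18 to -0.081 when each array was left out, and was nearest 0 without control array 1. The genes EIF5A2, EIF5A, EIF4EBP1, EIF4A3, EIF4B, EIF2S2, EIF2S3, EIF3B and EIF3L passed in the same direction under all 18 alternative settings tried, leaving out each array included.

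**Figure D2:**
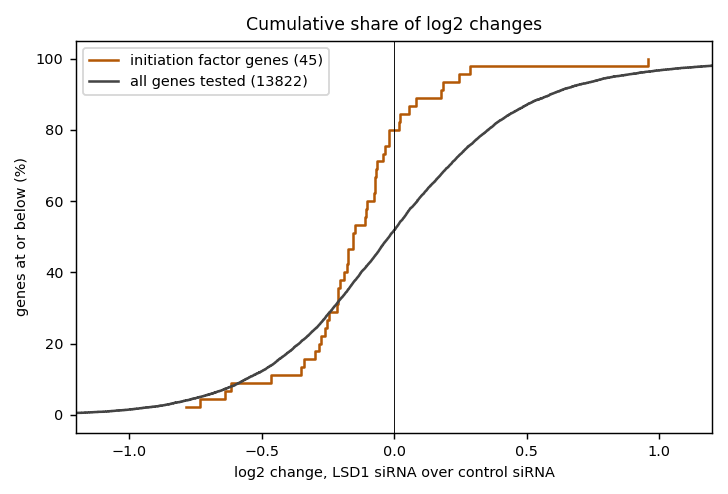
Cumulative share of genes (y axis, percent) at or below a log2 change (x axis, LSD1 siRNA over control siRNA) for the 45 initiation factor genes and for all 13822 genes tested. At a change of 0 the curve of the initiation factors stands at 80%, against 51.9% for all genes, and it is steeper around 0.

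EIF5A2 and EIF5A, a pair of paralogs that both receive hypusine, changed in opposite directions. EIF5A2 had signals of 3199, 3373 and 3064 with LSD1 siRNA, against 1690, 1539 and 1720 with control siRNA. Its mean signal was 195% of the control mean, a log2 change of 0.96 (standard error 0.07, limma adjusted p = 8.84e-07). EIF5A, the broadly expressed form, had signals of 421, 459 and 483 with LSD1 siRNA, against 679, 768 and 953 with control siRNA. Its mean was 56.8% of the control mean, a log2 change of -0.79 (standard error 0.12, adjusted p = 0.000259). In neither gene did the groups overlap. An exact two-sided permutation test gave p = 0.1 for each, the smallest that 3 against 3 arrays allow.

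Every tested probe set of both genes passed. The other 2 EIF5A2 sets averaged 1457 and 1135 with LSD1 siRNA and 703 and 471 with control siRNA, with log2 changes of 1.03 and 1.24. The other EIF5A sets averaged 364 and 315 with LSD1 siRNA and 545 and 424 with control siRNA, with changes of -0.56 and -0.42. Both of those sets carry the suffix for possible cross-hybridisation, and EIF5A has a near-identical gene copy, EIF5AL1, so its signal may not come from EIF5A alone. The EIF5A signals were also far below the members' median of 5241, and below those of the set used for EIF5A2. Whether these sets measure the main EIF5A transcript was not tested. Among all genes tested EIF5A2 stood at the 96.3 percentile of log2 changes and EIF5A at the 4.04 percentile.

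The enzymes that make hypusine were also lower. DHPS, deoxyhypusine synthase, had signals of 1581, 1646 and 1518 with LSD1 siRNA, against 1976, 2039 and 1665 with control siRNA, a log2 change of -0.25 (adjusted p = 0.0279). DOHH, the hydroxylase of the final step, had signals of 120, 128 and 164, against 259, 217 and 198 with control siRNA, a change of -0.66 (adjusted p = 0.00815). The groups did not overlap in either gene, but the calls were less stable than those of EIF5A. DHPS lost its call without LSD1 siRNA array 1 or 3 and without control array 1 or 2, with adjusted p between 0.0643 and 0.111. DOHH averaged over its probe sets was at -0.24 (adjusted p = 0.463). EIF6, which keeps the large ribosomal subunit apart from the small one, had signals of 13368, 13928 and 13536 with LSD1 siRNA and 14305, 14143 and 11958 with control siRNA. Its groups overlapped, with a log2 change of 0.020 (adjusted p = 0.862).

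**Figure D3:**
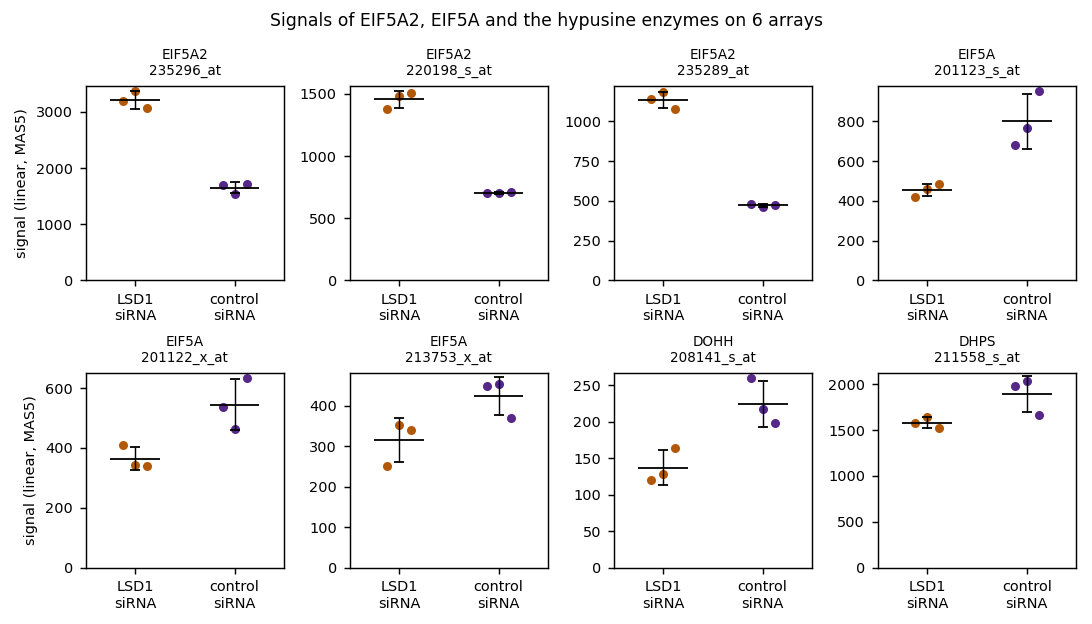
Linear signal (y axes, from 0) on each of the 3 LSD1 siRNA and 3 control siRNA arrays for the 3 probe sets each of EIF5A2 and EIF5A and the sets used for DOHH and DHPS; lines and bars are mean and SD. All EIF5A2 panels have the LSD1 siRNA points above the control points, and the other panels have them below.

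Of the 3 tested eIF4E-binding proteins, 2 fell (66.7%, against 21.3% of all genes tested). EIF4EBP1, the best known of the mTOR-controlled repressors of the cap-binding protein, had signals of 2036, 1877 and 1981 with LSD1 siRNA, against 3559, 3430 and 2878 with control siRNA. It fell to 59.7% of the control mean, a log2 change of -0.73 (standard error 0.08, adjusted p = 2.37e-05). EIF4ENIF1, which encodes the eIF4E transporter, had signals of 450, 368 and 392, against 588, 659 and 657 with control siRNA, a change of -0.64 (adjusted p = 0.000398). Both genes had groups that did not overlap. A second EIF4ENIF1 set, below the filter, averaged 17.0 with LSD1 siRNA and 3.77 with control siRNA, and the mean of both sets was 0.050. EIF4EBP2, a paralog of EIF4EBP1, averaged 1358 ± 40.4 with LSD1 siRNA and 1518 ± 128 with control siRNA (SD, n = 3 each). Its groups did not overlap, but its change of -0.16 did not pass (adjusted p = 0.121).

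Of the 8 tested genes of the eIF4F group, 5 fell (62.5%, against 21.3% of all genes tested) and none rose. EIF4A3, a helicase of the exon junction complex and a relative of the initiation helicase, had signals of 6567, 6432 and 6647 with LSD1 siRNA, against 9431, 9382 and 8372 with control siRNA. It fell by 0.47 on the log2 scale (standard error 0.06, adjusted p = 0.00011). EIF4B, which stimulates the helicase, had signals of 4564, 4237 and 4700, against 5448, 5396 and 5752 with control siRNA, a change of -0.30 (adjusted p = 0.00216). Another EIF4B set was at -0.023 and did not pass. EIF4H, related to EIF4B, had signals of 10643, 10322 and 10824 with LSD1 siRNA, against 12005, 11893 and 11962 with control siRNA (-0.17, adjusted p = 0.0255), a call lost without any 1 of 4 arrays (LSD1 siRNA 1, 2 or 3, or control 2).

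EIF4G1, the scaffold of the complex, had signals of 4190, 4491 and 4176 with LSD1 siRNA, against 4722, 5315 and 4865 with control siRNA. Its change of -0.21 passed (adjusted p = 0.0207), with a mean over both of its probe sets of -0.13 (adjusted p = 0.161), and was lost without LSD1 siRNA array 1 or 3 or control array 2. EIF4E2, a cap-binding relative of EIF4E, had signals of 2089, 2038 and 2092 with LSD1 siRNA, against 2509, 2252 and 2285 with control siRNA, a change of -0.18 (adjusted p = 0.0449) that was lost without any 1 LSD1 siRNA array and without control array 1. EIF4E itself had signals of 4116, 3984 and 4101 with LSD1 siRNA and 3822, 4107 and 4458 with control siRNA. The groups overlapped, and the change of -0.019 did not pass (standard error 0.07, adjusted p = 0.852). EIF4G2, a relative of the scaffold that acts without the cap-binding protein, was at -0.16 (adjusted p = 0.133), and the cap-binding paralog EIF4E3 was at -0.019 (adjusted p = 0.92).

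**Figure D4:**
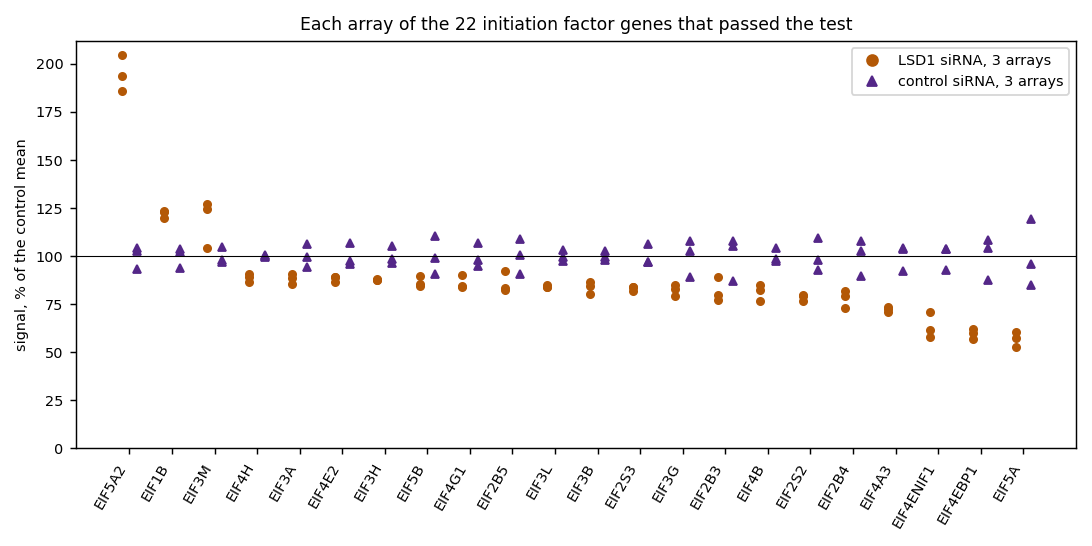
Signal of each array as a percentage of the gene's control mean (y axis, from 0) for the 22 initiation factor genes that passed the test (x axis, ordered by log2 change), with LSD1 siRNA arrays as circles and control siRNA arrays as triangles. The groups overlap for EIF3M, EIF2B5 and EIF2B3, and the LSD1 siRNA means of the 19 lower genes lie between 56.8% and 88.6% of control.

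Of the 11 tested factors of start codon choice, eIF2 and subunit joining, 3 fell and 1 rose. That is 27.3% and 9.09%, against 21.3% and 19.8% of all genes tested. EIF2S2, the beta subunit of eIF2, had signals of 16669, 17204 and 17356 with LSD1 siRNA, against 23702, 21302 and 20073 with control siRNA. It changed by -0.34 (standard error 0.07, adjusted p = 0.00214), and its second probe set by -0.73. EIF2S3, the gamma subunit that binds the initiator tRNA, had signals of 2963, 2894 and 2965, against 3426, 3415 and 3750 with control siRNA. It changed by -0.26 (adjusted p = 0.00453), and its other 2 sets by -0.40 and -0.33. In both genes every LSD1 siRNA array was below every control array.

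EIF2S1, the alpha subunit that the stress kinases phosphorylate, had signals of 10784, 10735 and 11633 with LSD1 siRNA and 11644, 11237 and 11947 with control siRNA. The brightest set was at -0.07 and did not pass (adjusted p = 0.385), while another set was at -0.27 and passed when every probe set was tested (adjusted p = 0.0267). The mean over its 3 sets was -0.19 (adjusted p = 0.021). EIF5B, the GTPase of subunit joining, had signals of 3146, 2974 and 3001 with LSD1 siRNA, against 3191, 3474 and 3887 with control siRNA. Its change of -0.21 was near the threshold (adjusted p = 0.0452) and was lost without any array but control array 1, and its probe sets disagreed: the mean of all 6 was -0.012, and another set, at 0.27, passed as higher (adjusted p = 0.0448).

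EIF1B, a paralog of the start codon factor EIF1, rose. It had signals of 6221, 6045 and 6189 with LSD1 siRNA, against 5150, 4742 and 5237 with control siRNA, a log2 change of 0.29 (standard error 0.06, adjusted p = 0.0022). The groups did not overlap, and a second, dim set below the filter moved the mean of both to -0.0095. EIF1 was at -0.15 (adjusted p = 0.227), and without control array 3 at -0.23 (adjusted p = 0.0326). EIF1AX (0.019), EIF1AD (-0.07), EIF2A (0.08), EIF2D (-0.08) and EIF5 (-0.10), the GTPase activator of eIF2, did not pass, with groups that overlapped in each. A set of EIF5 with the cross-hybridisation suffix was at -0.18 and passed among all probe sets (adjusted p = 0.0336).

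Of the 5 subunits of eIF2B, which reloads eIF2 with GTP, 3 fell (60%, against 21.3% of all genes tested) and 2 did not pass. EIF2B4 had signals of 1440, 1614 and 1558 with LSD1 siRNA, against 2026, 2122 and 1766 with control siRNA, and changed by -0.35 (adjusted p = 0.00403). Its second set was at -0.08 and did not pass. EIF2B3 had signals of 2078, 2315 and 2003, against 2739, 2802 and 2266 with control siRNA, and changed by -0.28 (adjusted p = 0.023). EIF2B5, the catalytic subunit, had signals of 1508, 1671 and 1492, against 1971, 1820 and 1649 with control siRNA, a change of -0.22 (adjusted p = 0.0491). In EIF2B3 and EIF2B5 the groups overlapped. EIF2B3 lost its call without LSD1 siRNA array 1 or 3 or control array 1 or 2, and EIF2B5 without the same 4 arrays, with adjusted p from 0.0682 to 0.181. EIF2B1 (-0.06) and EIF2B2 (-0.04) did not pass.

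Of the 13 eIF3 subunits, 5 fell and 1 rose (38.5% and 7.69%, against 21.3% and 19.8% of all genes tested). The core subunit EIF3B had signals of 3436, 3707 and 3629 with LSD1 siRNA, against 4398, 4192 and 4266 with control siRNA, a change of -0.25 (standard error 0.06, adjusted p = 0.00411). Of its 5 tested probe sets 4 passed as lower, at -0.42 to -0.25, and a dim set was at 0.14. EIF3L had signals of 14475, 14598 and 14453, against 17726, 16757 and 17130 with control siRNA, a change of -0.25 (adjusted p = 0.00462). EIF3G, a core subunit, had signals of 6096, 6233 and 5845 with LSD1 siRNA, against 7948, 7566 and 6553 with control siRNA, a change of -0.28 (adjusted p = 0.0106) that was lost without LSD1 siRNA array 3. The groups did not overlap in any of these 3 genes.

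EIF3H had signals of 10323, 10337 and 10369 with LSD1 siRNA, against 12410, 11606 and 11394 with control siRNA (-0.19, adjusted p = 0.0218), and a dimmer set changed by -0.88. The EIF3H call was lost without any 1 LSD1 siRNA array and without control array 1. EIF3A, the largest core subunit, had signals of 11036, 11714 and 11417 with LSD1 siRNA, against 13671, 12170 and 12811 with control siRNA, and changed by -0.18 (adjusted p = 0.043). Its call was lost in 10 of the 18 alternative settings, among them without any 1 LSD1 siRNA array and without control array 1, yet its 2 dimmer sets changed by -0.31 and -0.49. EIF3M was the subunit that rose: its signals were 13974, 17035 and 16689 with LSD1 siRNA, against 13143, 13000 and 14014 with control siRNA. Its change of 0.24 passed (adjusted p = 0.0282), but the groups overlapped, and the call was lost without LSD1 siRNA array 2 or 3 or control array 1 or 2 (adjusted p from 0.0634 to 0.13). A second bright EIF3M set changed by 0.42, and a dim one was at -0.61 and did not pass. The mean of all EIF3M sets was 0.018 (adjusted p = 0.908), and the EIF3M call was lost in 8 of the 18 alternative settings.

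The other eIF3 subunits did not pass. EIF3F had a change of -0.21 with groups that did not overlap (adjusted p = 0.0563), and -0.29 without control array 3 (adjusted p = 0.00835). EIF3I was at -0.11 (adjusted p = 0.431), and at -0.23 without control array 3 (adjusted p = 0.0186). EIF3E (-0.11), EIF3D (-0.07), EIF3J (0.05) and EIF3K (-0.03) had overlapping groups. EIF3C is represented by a dim set with signals of 29.1, 45.6 and 46.6 with LSD1 siRNA and 83.0, 58.8 and 67.3 with control siRNA (-0.62, adjusted p = 0.0936). The non-coding RNAs EIF3J-DT (0.18) and EIF1B-AS1 (0.17) did not pass. Counted by array, 22 of the 45 members had every LSD1 siRNA array below every control array and 2 had every one above. The same held for 26.2% and 24.2% of all genes tested, 50.4% in either direction.

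Each probe set was also tested on its own. Of 109 tested probe sets of the members, 29 passed as lower and 7 as higher, which is 33.0%, against 34.4% of all probe sets with 1 symbol tested the same way. In this fit none of 28 genes with at least 2 tested sets had sets that passed in both directions. EIF5B came closest: one set passed as higher (adjusted p = 0.0448) and the set used for the gene, called lower in the fit over genes, missed as lower (adjusted p = 0.0564). All tested sets passed for EIF5A2, EIF5A, EIF2S2, EIF2S3 and EIF3H. The sets used for EIF3A, EIF4E2 and EIF2B5 also missed the threshold here (adjusted p = 0.0503, 0.06 and 0.0613). Both other sets of EIF3A and another set of EIF4E2 passed as lower, and the other set of EIF2B5 was at 0.26 and did not pass.

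Of 47 tested partner genes of initiation in 5 lists, 18 fell and 9 rose. Over all genes tested 21.3% fell and 19.8% rose, so the number of partner genes that rose was near the share of all genes. Among the eIF2 kinases, EIF2AK4, which senses uncharged tRNA, had signals of 2012, 2042 and 1881 with LSD1 siRNA, against 1451, 1350 and 1557 with control siRNA, a change of 0.44 (adjusted p = 0.000408). EIF2AK3, the kinase of endoplasmic reticulum stress, had signals of 1463, 1492 and 1548, against 1022, 1051 and 1281 with control siRNA, a change of 0.43 (adjusted p = 0.00211). EIF2AK1, the heme-regulated kinase, changed by -0.26 (adjusted p = 0.00609), and the interferon-induced EIF2AK2 was at -0.11 and did not pass. NCK1, an adaptor that modulates eIF2 phosphorylation, rose by 0.48. Averaged over all probe sets EIF2AK4 was at 0.16 (adjusted p = 0.158) and EIF2AK1 at -0.22 (adjusted p = 0.14).

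The MNK kinases, which phosphorylate the cap-binding protein, changed in opposite directions. MKNK2 had signals of 4266, 3599 and 3810 with LSD1 siRNA, against 7502, 6613 and 6545 with control siRNA, a change of -0.82 (standard error 0.08, adjusted p = 7.07e-06). MKNK1 had signals of 1755, 1493 and 1493, against 1028, 1047 and 1208 with control siRNA, a change of 0.52 (standard error 0.09, adjusted p = 0.00054). RPS6KB2, an S6 kinase downstream of mTOR, had the largest change of these lists. Its signals were 171, 150 and 123 with LSD1 siRNA, against 485, 495 and 390 with control siRNA, a change of -1.54 (adjusted p = 9.78e-06). In all 3 genes the groups did not overlap.

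Of 15 tested genes of mTOR and MNK signalling, 5 fell and 2 rose, where 21.3% of all genes tested fell and 19.8% rose. RPS6KB1, the other S6 kinase, changed by -0.30, and the mTOR complex subunits MLST8 and RPTOR by -0.69 and -0.50, while MTOR was at -0.31 and did not pass (adjusted p = 0.0644). RHEB, which activates mTOR, was at 0.33 (adjusted p = 0.00195), but at 0.045 when sets with the cross-hybridisation suffix could be chosen. Of 14 initiation partners, 4 fell and 3 rose, beside the same shares of all genes. METAP1 and METAP2, which remove the initiator methionine, changed by -0.34 and -0.20, and MCTS1 and DENR, which form one complex in reinitiation and tRNA recycling, by 0.33 and -0.29, calls that the mean of their probe sets did not keep (adjusted p = 0.125 and 0.0771). PAIP2, a repressor of poly(A)-binding protein, rose by 0.28, though the mean of its sets was 0.06 (adjusted p = 0.766).

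Elongation and release factors were mostly lower. Of 9 tested, 6 fell and 1, GSPT2, rose by 0.31, where 21.3% of all genes tested fell and 19.8% rose. EEF1D, which exchanges the nucleotide of elongation factor 1, averaged 13502 ± 1252 with LSD1 siRNA and 19112 ± 1592 with control siRNA (SD, n = 3 each), a change of -0.50 (adjusted p = 0.000447). It was at -0.29 with the brightest set of any suffix (adjusted p = 0.00649) and at -0.26 with the mean of its sets (adjusted p = 0.0458). ETF1, the release factor that reads stop codons, changed by -0.41, EEF1A2 by -0.44 and the translocation factor EEF2 by -0.36. EEF2K, the kinase that inhibits EEF2, changed by -0.39, and EEF1A1 was at -0.05 and did not pass. The EEF1A1 set averaged 929 with LSD1 siRNA and 964 with control siRNA, against 14580 and 18694 for EEF2. Whether that set measures the main EEF1A1 transcript was not tested. A further 3 genes of the list, EEF1B2, EEF1E1 and EEF1G, had no probe set with exactly 1 symbol.

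**Figure D5:**
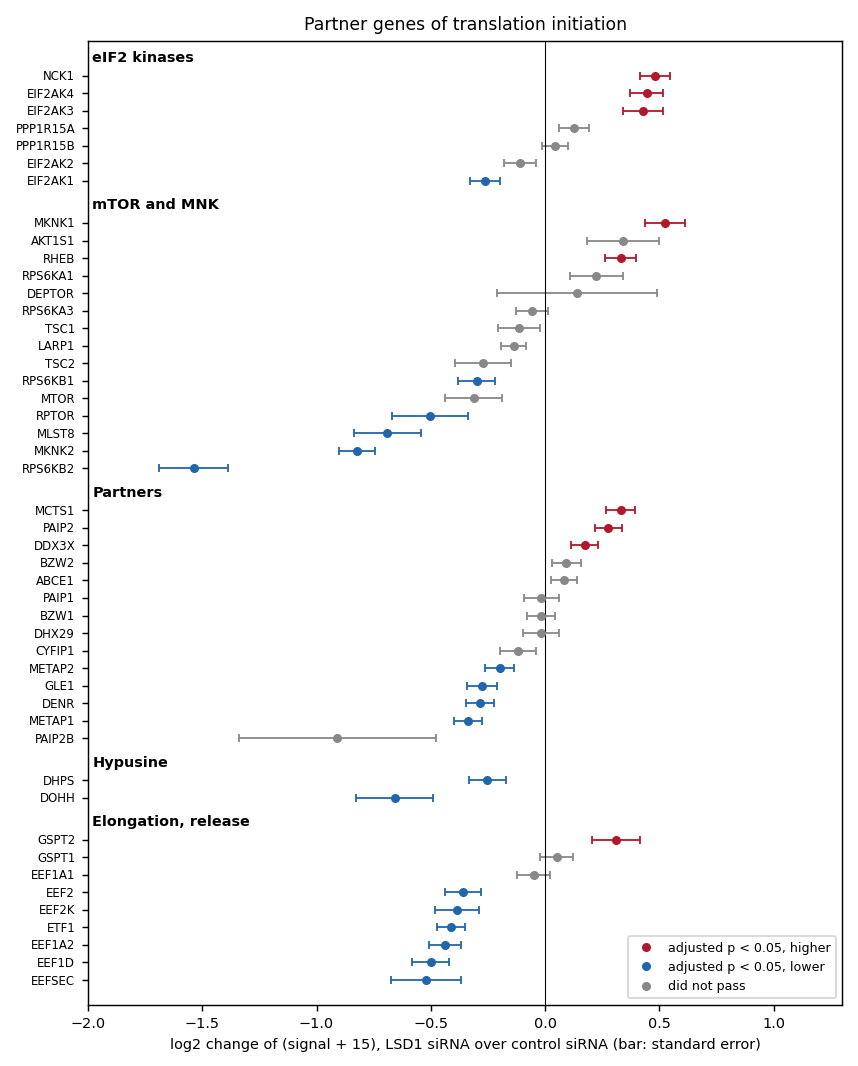
Log2 change of signal + 15, LSD1 siRNA over control siRNA (x axis), for the 47 tested partner genes (y axis, grouped by list), with 3 arrays per group and bars for the standard error. RPS6KB2 lies furthest left at -1.54, MKNK2 and MKNK1 lie on opposite sides at -0.82 and 0.52, and 6 of 9 elongation and release factors lie below 0 and passed.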

How the data were processed

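The deposited values are linear intensity signals of 54675 probe sets from 6 arrays, made by the authors with GCOS, Affymetrix Expression Console 1.1 and MAS5, per the submitters' processing notes. The 2% trimmed mean is 500.1 on every array, so a common scaling is in them. Probe sets with exactly 1 symbol (41091, without control sets) were kept. Of these, 41037 matched RefSeq by gene identifier.

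Each gene was represented by its brightest probe set, using sets with the x suffix only where there was no other. Values were log2(signal + 15), which understates changes of dim genes. The filter kept genes whose mean exceeded a signal of about 28.1, percentile 40 of the full array.

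The comparison used limma 3.58.1 under R 4.3.3 (lmFit, eBayes with an intensity trend, no covariate, two-sided), with Benjamini-Hochberg adjustment over 13822 genes at 0.05, or over all 27079 tested probe sets where sets are named. Adjusted p-values printed for a left-out array, a mean of probe sets or another setting come from the same model refitted under that setting. Precision is set by having 3 arrays a group; the median standard error was 0.11. Same-numbered arrays of the groups had deviations correlated at -0.012 to 0.023, so no shared effect of the replicate number was seen. The labels do not say whether same-numbered arrays were handled together.

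Members and lists were chosen with earlier results of these data known. Array values are printed for members that passed, and for EIF4E, EIF2S1 and EIF6, and up to 4 genes with the smallest p are named from each partner list; other partner genes, and EIF3C, were named after their values were seen. Figures were drawn with matplotlib 3.10.9.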

Additional observations from a re-analysis of the deposited data

How the results depend on the processing

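Of the 22 calls, 9 held under all 18 alternatives. The number of members that fell was 11 without the intensity trend (24.4%, against 17.9% of all genes), 11 in the unmoderated test (24.4%, against 15.8%), and 10 to 21 when each array was left out (22.2% against 18.3%, to 46.7% against 21.7%). The number that rose was 1 with the mean of all probe sets and 2 to 3 when each array was left out. Of all genes, 34% were called in either direction with that mean, and 35% to 41.4% with an array left out. With the replicate number as a block, 3 rose and 17 fell, EIF3A and EIF4H losing their calls, and 41.1% of all genes changed. The members' median was -0.086 after quantile normalization, -0.085 with the mean of all probe sets, and -0.18 to -0.081 when each array was left out. Among members' probe sets, 4 rose without the trend, 4 in the unmoderated test and 4 to 8 when each array was left out, while 17, 16 and 20 to 36 fell. Of all genes, 35.2% were called without the trend and 30.8% in the unmoderated test, against 41.0% in the main fit. The share of all probe sets called under these settings was not counted, so the probe set counts are given as values only. Testing every probe set called 4607 higher and 4703 lower. With the mean of all probe sets 5 partner genes rose, where 34% of all genes were called in either direction. The call of EIF5B, at -0.21, was lost with its sign turned (0.016, brightest set of any suffix). EIF1, which had not passed, turned to 0.017 after quantile normalization. Leaving out each array gave ranges across 0 for EIF1AX (-0.014 to 0.067), EIF3K (-0.096 to 0.0037), EIF4E (-0.073 to 0.038), EIF4E3 (-0.094 to 0.068) and EIF6 (-0.064 to 0.065). With the mean of all probe sets EIF1B (-0.0095), EIF2B5 (0.023), EIF3E (0.026), EIF3J (-0.0024), EIF4E (0.017), EIF4E3 (0.085) and EIF4ENIF1 (0.050) turned; dim sets enter that mean. With that mean, called values moved by over 1.5 times for EIF3H (-0.54), EIF3A (-0.33), EIF2S2 (-0.53), EIF2B4 (-0.22) and EIF4B (-0.19), and DHPS was at -0.40 with the brightest set of any suffix. The cause of the other changes was not tested. Signals near background limit EIF3C and EIF1B-AS1.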

Other observations

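A further 10 probe sets carry a symbol of an initiation factor beside others and are outside the comparison, so they are given as values with no test. All 3 sets that name EIF4A1, with small nucleolar RNAs of its introns, were lower on every LSD1 siRNA array than on every control array, with log2 differences of -0.44 to -0.34. The brightest by its control mean had signals of 19654, 20804 and 20499 with LSD1 siRNA and 29304, 28291 and 25164 with control siRNA. The 2 sets that name EIF4A2 beside RNAs of its introns were also lower without overlap. The brighter had signals of 17373, 19205 and 18626 with LSD1 siRNA and 25579, 23510 and 22963 with control siRNA, a difference of -0.38. Of 3 sets that name both EIF3C and EIF3CL, near-identical copies, 2 were lower without overlap, and their differences lay between -0.23 and -0.15.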
